A study of Mus musculus with 20 samples.

Results

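Genes of sphingolipid signaling and metabolism were examined in the mouse uterus, 10 of the 45777 genes in the expression table. They encode both sphingosine kinases (Sphk1, Sphk2), 3 subunits of serine palmitoyltransferase (Sptlc1, Sptlc2, Sptlc3), 3 receptors for sphingosine-1-phosphate (S1pr1, S1pr2, S1pr3), the lyase Sgpl1 and the phosphatase Sgpp2. The genes were chosen by gene symbol, with their levels in TPM across the 4 groups already known. TPM is a length-corrected measure of transcript abundance scaled to the same sum in every library. The values of the 10 genes are therefore described, and results of the later fit across genes are given for them as description only. All 10 were above 0 TPM in every library, which was the filter for the fit across genes.

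RNA was sequenced from the uterus of 20 wild-type pregnant mice of the B6D2F1 strain aged 8 to 12 weeks, with 5 mice in each of 4 groups and 1 uterine horn for each mouse. All uteri were collected at 18:00 on day 3.5 of pregnancy, before embryo attachment. The control group received no RU486 and no cells. Mice of the implantation failure (IF) group received RU486 (mifepristone), an antagonist of the progesterone and glucocorticoid receptors, at a low dose of 3 mg/kg. It was given under the skin on the morning of day 3.5, the day of collection. The PBMC group received 50000 peripheral blood mononuclear cells in each uterine horn on day 1.5, and later the same RU486 on day 3.5. The PBMC-hCG group was treated likewise, with the same number of cells that had been cultured with 5 IU/mL human chorionic gonadotropin (hCG). The cells came from non-pregnant female mice. A group injected without cells was not analysed here and, in the comparisons with the IF group, the cells and the intrauterine injection cannot be told apart.

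Sphingosine kinases phosphorylate sphingosine to sphingosine-1-phosphate (S1P), a lipid that leaves the cell and acts on G protein-coupled receptors. S1P is removed either by phosphatases, which return it to sphingosine, or by the lyase, which cleaves it irreversibly, while serine palmitoyltransferase carries out the first step by which all sphingolipids are built. Mice with reduced sphingosine kinase activity are known for defects of the decidua and its vessels in early pregnancy, and S1pr1 is known as the main S1P receptor of the vascular endothelium.

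The promoters of the members that differed most in level between the IF and PBMC-hCG groups are shown because those members, Sphk1, Sptlc3 and S1pr3, are the ones on which the description below turns. Each sequence is the 250 bases before an annotated transcript start on the + strand of GRCm38.p6, from RefSeq, written 5′ to 3′. Promoter windows were matched for 9 of the 10 genes, and S1pr1 was not matched. Sphk1 had 5 windows, of which window 4 is shown, at chr11:116532194-116532443. It was the only Sphk1 window recorded as free of annotated exons. The Sptlc3 window lay at chr2:139493663-139493912 and the S1pr3 window at chr13:51408368-51408617. Capitals mark matches to any of 4 motifs searched on both strands.
Sphk1: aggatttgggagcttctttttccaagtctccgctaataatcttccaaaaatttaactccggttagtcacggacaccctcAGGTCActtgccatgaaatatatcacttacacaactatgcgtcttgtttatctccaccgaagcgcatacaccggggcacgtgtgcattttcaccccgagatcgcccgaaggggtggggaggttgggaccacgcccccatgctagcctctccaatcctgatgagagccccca
Sptlc3: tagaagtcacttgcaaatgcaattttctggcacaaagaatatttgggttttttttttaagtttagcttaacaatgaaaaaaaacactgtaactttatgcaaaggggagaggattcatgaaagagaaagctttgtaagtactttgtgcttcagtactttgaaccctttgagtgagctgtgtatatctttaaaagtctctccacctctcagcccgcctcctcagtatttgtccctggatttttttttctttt
S1pr3: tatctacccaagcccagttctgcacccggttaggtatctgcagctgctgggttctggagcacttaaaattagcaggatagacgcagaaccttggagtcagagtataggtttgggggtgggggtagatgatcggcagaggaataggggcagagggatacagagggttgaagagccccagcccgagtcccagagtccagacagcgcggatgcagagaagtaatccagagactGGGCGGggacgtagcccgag

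The motifs searched were AGGTCA, the core of the estrogen response element, TGTTCT, the core shared by the progesterone and glucocorticoid receptors, the AP-1 site TGANTCA and the GC box GGGCGG. In the Sphk1 window shown, AGGTCA began 171 bases before the start, and it was also in the overlapping window 5. Windows 2 and 3 of Sphk1 each held TGANTCA, and window 1 held none of the 4. Outside the windows of Sphk1, AGGTCA was also in those of S1pr2 and Sgpp2. The S1pr3 window held GGGCGG, 20 bases before the start, and the Sptlc3 window held none of the 4. Over the 32851 promoter windows of the same length, 14.0% held AGGTCA, 16.1% held TGTTCT, 6.75% held TGANTCA and 32.7% held GGGCGG. These shares are per window, and Sphk1 had 5 windows. The matches describe the letters of the windows and say nothing of binding.

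The libraries were alike in their totals, which were between 999989 and 999999 TPM because TPM is scaled to a fixed sum, and 22702 to 24097 genes were above 0. Read depth is unknown, since TPM keeps no counts. Steroid receptor genes of the uterus (Esr1 and Pgr) were present in every library, with a summed level of 142 to 328 TPM. One control library, replicate 2, stood apart, with 89.2 TPM over 4 adipose markers against at most 3.0 TPM in the other control mice, and with the lowest stromal and myometrial sums of its group. Smaller adipose sums were present in IF replicate 5 (12.4 TPM, against at most 0.1 TPM in the other IF mice) and PBMC replicate 4 (7.4 TPM, against at most 0.4 TPM). The part of adipose tissue in the values of these mice was not tested. Some differences from the control group are given both with and without control replicate 2.

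Sphk1 was the member with the largest difference between the IF and control groups. Its level was 13.6, 25.5, 16.4, 18.7 and 19.2 TPM in the 5 control mice and 38.1, 54.1, 38.4, 53.2 and 96.9 TPM in the 5 IF mice. Every IF mouse was above every control mouse, and 1 IF mouse was far above the other 4. In the PBMC group the levels were 24.5, 28.2, 33.0, 23.4 and 65.9 TPM, and in the PBMC-hCG group they were 38.1, 14.9, 13.3, 18.2 and 20.6 TPM. The group means fell in the order IF (56.1 ± 24.0, SD, n = 5), PBMC (35.0 ± 17.7), PBMC-hCG (21.0 ± 9.96) and control (18.7 ± 4.42), and neighbouring groups in that order overlapped. The highest PBMC-hCG mouse was at the level of the lowest IF mouse, and the other 4 PBMC-hCG mice were below all IF mice.

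On the log2(TPM + 0.1) scale, Sphk1 was 1.52 ± 0.31 (SE of the fit) higher in IF mice than in controls, a 2.88-fold difference. It was 1.43 ± 0.31 lower in the PBMC-hCG than in the IF group (-1.43), 0.71 ± 0.31 lower in the PBMC than in the IF group (-0.71), and 0.73 ± 0.31 lower in the PBMC-hCG than in the PBMC group (-0.73). Between the PBMC-hCG and control groups the log2 difference was 0.09 ± 0.31, and with 1 mouse left out it lay between -0.15 (PBMC-hCG replicate 1) and 0.23 (PBMC-hCG replicate 3). Without IF replicate 5, the highest mouse, Sphk1 differed by 1.31 ± 0.30 for IF minus control and by -1.21 ± 0.30 for PBMC-hCG minus IF. Without PBMC replicate 5, the PBMC-hCG minus PBMC difference was -0.47 ± 0.29.

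Sphk2, the other sphingosine kinase, varied little. Its mean level was 30.5 ± 1.64 TPM in the control, 33.3 ± 1.76 TPM in the IF, 33.0 ± 3.41 TPM in the PBMC and 34.9 ± 1.58 TPM in the PBMC-hCG group (SD, n = 5 each). No PBMC-hCG mouse (33.2 to 37.0 TPM) was as low as any control mouse (28.0 to 32.4 TPM), and the other pairs of groups overlapped. The largest log2 difference of Sphk2 was 0.20 ± 0.07, between the PBMC-hCG and control groups.

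Because Sphk2 was nearly level, the balance between the kinases followed Sphk1. TPM is corrected for transcript length, so levels of different genes can be set side by side. Sphk1 made up 37.7% ± 6.06 of the summed kinase TPM in the control group, 60.9% ± 8.98 in the IF group, 49.4% ± 12.6 in the PBMC group and 36.2% ± 9.95 in the PBMC-hCG group (SD, n = 5 each). It was the more abundant kinase transcript in all 5 IF mice (53.3% to 75.7%) and the less abundant one in all 5 control mice (30.2% to 45.7%). In the PBMC-hCG group it was the less abundant one in every mouse except replicate 1, at 53.1%.

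**Figure D1:**
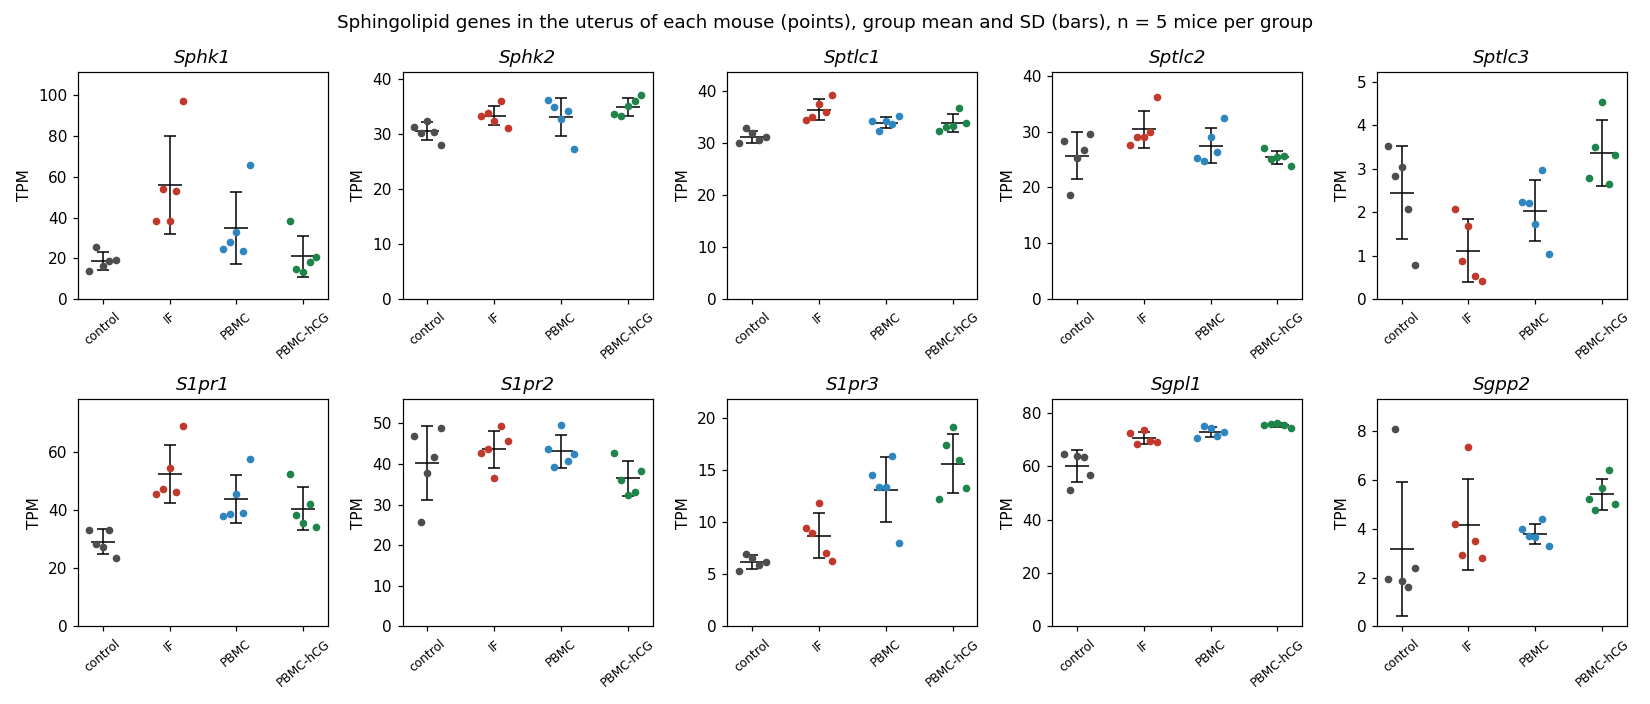
Level of each of the 10 genes in TPM (vertical axes, from 0) in the 4 groups (horizontal axes), where each point is 1 mouse and the bars give the group mean and SD (n = 5). Sphk1 was at 38.1 to 96.9 TPM in the IF mice and at 13.6 to 25.5 TPM in the control mice, S1pr3 had its highest mean in the PBMC-hCG group (15.6 TPM), and the control mouse at 8.09 TPM of Sgpp2 is replicate 2.

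Serine palmitoyltransferase is a complex of Sptlc1 with either Sptlc2 or Sptlc3, and the 3 subunits did not move alike. Sptlc1, the invariant subunit, was at 29.9, 32.8, 31.9, 30.5 and 31.2 TPM in the control mice and at 34.4, 35.0, 37.5, 35.9 and 39.2 TPM in the IF mice. All IF mice were above all control mice, although the log2 difference was small (0.22 ± 0.05). The PBMC (33.9 ± 1.09 TPM) and PBMC-hCG (33.8 ± 1.68 TPM) means lay between those of the control (31.2 ± 1.16 TPM) and IF (36.4 ± 1.94 TPM) groups.

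Sptlc2, the main catalytic partner by abundance, had means of 25.7 ± 4.28 TPM in the control, 30.4 ± 3.29 TPM in the IF, 27.5 ± 3.17 TPM in the PBMC and 25.4 ± 1.17 TPM in the PBMC-hCG group. The PBMC-hCG mice (23.8 to 27.1 TPM) were all below the IF mice (27.6 to 36.1 TPM), with a log2 difference of -0.25 ± 0.11. IF replicate 5 was again the highest mouse of its group. In the control group replicate 2 was lowest (18.6 TPM against 25.2 to 29.6 TPM), and the Sptlc2 difference for IF minus control was 0.25 ± 0.11 with this mouse and 0.14 ± 0.08 without it.

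Sptlc3, the alternative partner known for making shorter sphingoid bases, went the other way and had the lowest mean of the 10 genes in every group. It was at 3.53, 2.83, 3.04, 2.08 and 0.779 TPM in the control mice and at 2.08, 0.888, 1.68, 0.541 and 0.429 TPM in the IF mice, so the groups overlapped. The PBMC mice were at 2.24, 2.22, 1.73, 2.98 and 1.05 TPM. The PBMC-hCG mice were at 2.79, 3.51, 4.55, 2.65 and 3.32 TPM, all above the IF mice. Its log2 differences were -1.12 ± 0.40 between the IF and control groups, 0.95 ± 0.40 between the PBMC and IF groups and 1.69 ± 0.40 between the PBMC-hCG and IF groups. The pseudocount of 0.1 TPM understates fold changes at levels as low as these. Of the summed TPM of both partners, Sptlc3 made up 8.96% ± 4.16 in the control, 3.67% ± 2.48 in the IF, 7.06% ± 2.71 in the PBMC and 11.7% ± 2.44 in the PBMC-hCG group.

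The S1P receptors were together higher in the groups given RU486. The 5 receptors summed to 83.0 ± 9.28 TPM in the control mice (70.3 to 94.5 TPM), 115 ± 9.2 TPM in the IF mice (108 to 131 TPM), 110 ± 7.56 TPM in the PBMC mice (102 to 119 TPM) and 104 ± 9.27 TPM in the PBMC-hCG mice (96.6 to 120 TPM). No RU486-treated mouse was as low as any control mouse. S1pr1 and S1pr2 made up most of this sum in every group, and S1pr5 was near 0 throughout, at most 0.29 TPM and listed at 0 in several mice.

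S1pr1, which couples to Gi, was at 33.1, 28.5, 27.3, 33.3 and 23.5 TPM in the control mice and at 45.6, 47.1, 54.5, 46.1 and 68.8 TPM in the IF mice. These groups did not overlap, and the log2 difference was 0.84 ± 0.14. The PBMC mice were at 37.9, 38.7, 45.6, 39.0 and 57.6 TPM, and the PBMC-hCG mice were at 52.4, 38.2, 35.5, 42.0 and 34.3 TPM. Both groups given cells were above all control mice and overlapped with the IF group, with log2 differences from the IF group of -0.26 ± 0.14 (PBMC) and -0.37 ± 0.14 (PBMC-hCG). These depended on the highest mice: the former was -0.16 ± 0.14 without IF replicate 5, and the latter was -0.27 ± 0.14 without IF replicate 5 and -0.47 ± 0.14, and then called, without PBMC-hCG replicate 1. Against the control group, S1pr1 in the PBMC-hCG group was 0.47 ± 0.14 higher.

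Blood endothelial markers moved with S1pr1 for IF against control, and not for PBMC-hCG against IF, where S1pr1 was lower and the median marker sum was higher (772 against 695 TPM, with 1 of 6 markers called higher). All 6 of them (Pecam1, Cdh5, Tek, Tie1, Egfl7, Emcn) passed the test as higher in IF mice than in controls, and their summed level was 460 to 582 TPM in the control, 656 to 720 TPM in the IF, 660 to 764 TPM in the PBMC and 717 to 806 TPM in the PBMC-hCG mice. Their part in the S1pr1 result was not tested. In bulk tissue, more cells of a type and more RNA per cell cannot be told apart. Per 100 TPM of these markers, S1pr1 was at 5.48 ± 0.555 TPM in the control mice (4.69 to 6.04), 7.61 ± 1.66 TPM in the IF mice (6.56 to 10.5), 6.15 ± 1.53 TPM in the PBMC mice (5.06 to 8.73) and 5.30 ± 0.924 TPM in the PBMC-hCG mice (4.40 to 6.74). The IF and control mice did not overlap on this scale either, while the PBMC-hCG mice overlapped with the control mice.

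S1pr2, a receptor that also couples to G12/13, had its levels closer together. Its means were 40.3 ± 9.18 TPM in the control, 43.6 ± 4.64 TPM in the IF, 43.1 ± 4.01 TPM in the PBMC and 36.5 ± 4.25 TPM in the PBMC-hCG group, and every pair of groups overlapped. The widest spread was in the control group, where replicate 2 was lowest at 25.8 TPM. Without that mouse the log2 difference of S1pr2 for IF minus control went from 0.14 ± 0.14 to -0.01 ± 0.10. For PBMC-hCG minus control it went from -0.11 ± 0.14 to -0.27 ± 0.10, and was then called.

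S1pr3 had its highest levels in mice given cells. The control mice were at 5.32, 6.94, 6.60, 5.85 and 6.16 TPM, and the IF mice were at 9.47, 8.92, 11.8, 7.02 and 6.26 TPM. The PBMC mice were at 14.5, 13.4, 13.4, 16.3 and 8.02 TPM. In the PBMC-hCG group the levels were 12.2, 17.4, 19.1, 15.9 and 13.3 TPM, above all IF and all control mice. The log2 difference was 0.46 ± 0.18 between the IF and control groups, 0.59 ± 0.18 between the PBMC and IF groups, 0.85 ± 0.18 between the PBMC-hCG and IF groups and 1.31 ± 0.18 between the PBMC-hCG and control groups. The log2 difference between the PBMC-hCG and PBMC groups was 0.26 ± 0.18, and those groups overlapped. Without PBMC replicate 5, the lowest PBMC mouse for S1pr3, it was 0.10 ± 0.16.

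The receptor mixture differed between groups. S1pr1 made up 35.3% ± 4.85 of the summed receptor TPM in the control and 45.4% ± 4.72 in the IF group, against 39.6% ± 5.50 in the PBMC and 38.8% ± 3.56 in the PBMC-hCG group. S1pr3 made up 7.58% ± 1.64 in the control, 7.67% ± 2.16 in the IF, 12.1% ± 3.25 in the PBMC and 15.2% ± 3.49 in the PBMC-hCG group. S1pr2 made up 48.1% ± 7.42 in the control, 38.2% ± 4.78 in the IF, 39.2% ± 2.24 in the PBMC and 35.2% ± 2.88 in the PBMC-hCG group. S1pr4, a receptor of blood cells, stayed between 8.66% (IF) and 10.7% (PBMC-hCG) in the group means.

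**Figure D2:**
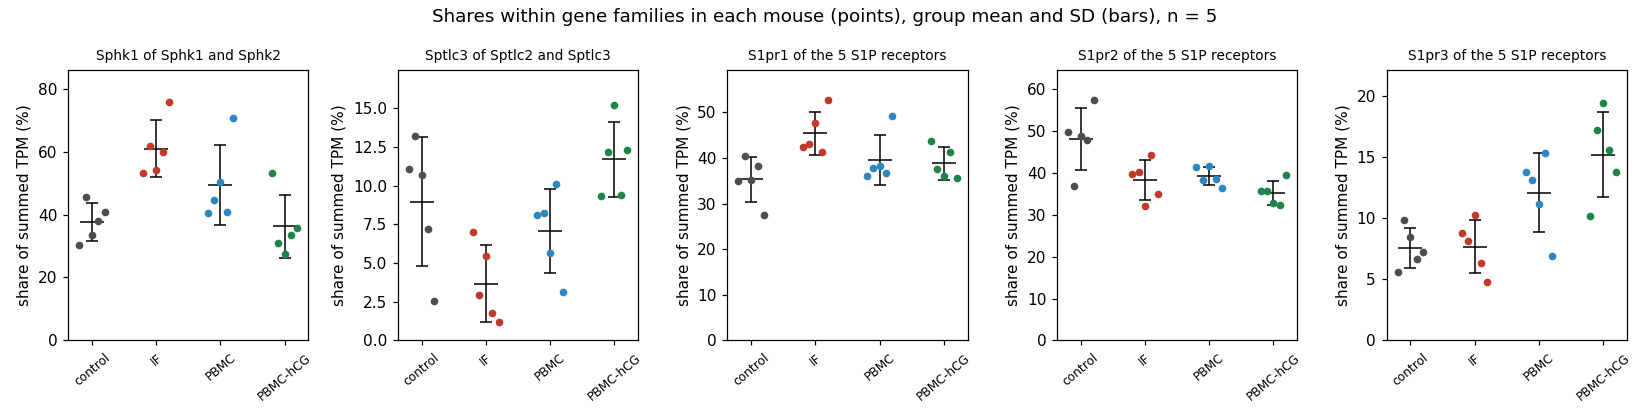
Share of summed TPM in percent (vertical axes, from 0) within the sphingosine kinases, within Sptlc2 and Sptlc3, and within the 5 S1P receptors, in the 4 groups (horizontal axes), where points are mice and bars are the group mean and SD (n = 5). Sphk1 took 53.3% to 75.7% of kinase TPM in the IF mice and 30.2% to 45.7% in the control mice, and S1pr3 took 15.2% of receptor TPM on average in the PBMC-hCG group.

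The genes of S1P breakdown were also described. Sgpl1, the lyase, was at 64.6, 51.2, 63.9, 63.5 and 56.8 TPM in the control mice and at 72.4, 68.2, 73.5, 69.4 and 68.9 TPM in the IF mice. The PBMC-hCG mice were at 75.2, 75.9, 76.0, 75.3 and 74.1 TPM, all above every control and every IF mouse. The means stood in the order control (60.0 ± 5.82 TPM), IF (70.5 ± 2.32 TPM), PBMC (72.7 ± 1.92 TPM) and PBMC-hCG (75.3 ± 0.763 TPM), with a log2 difference of 0.24 ± 0.05 between the IF and control groups and 0.33 ± 0.05 between the PBMC-hCG and control groups. Without control replicate 2, the lowest control mouse for Sgpl1, these differences were 0.18 ± 0.04 and 0.28 ± 0.04. Here too the endothelial markers moved in the same direction, and their part in the Sgpl1 result was not tested. Per 100 TPM of those markers, Sgpl1 was at 11.3 ± 0.623 TPM in the control mice (10.9 to 12.4) and 10.2 ± 0.357 TPM in the IF mice (9.60 to 10.5). It was at 10.1 ± 0.63 TPM in the PBMC and 9.87 ± 0.434 TPM in the PBMC-hCG mice. The order of the group means was thus the opposite.

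Sgpp2, a phosphatase that returns S1P to sphingosine, depended on single mice. The control mice were at 1.96, 8.09, 1.88, 1.63 and 2.38 TPM, where the mouse at 8.09 TPM is replicate 2. The IF mice were at 4.22, 2.95, 7.35, 3.49 and 2.82 TPM, the PBMC mice at 3.99, 3.70, 3.65, 4.41 and 3.31 TPM, and the PBMC-hCG mice at 5.22, 4.79, 5.67, 6.41 and 5.03 TPM. All RU486-treated mice were above the 4 other control mice, and the PBMC-hCG mice were all above the PBMC mice. The log2 difference between the IF and control groups was 0.57 ± 0.32 with all mice, 0.97 ± 0.21 without control replicate 2 and 0.35 ± 0.32 without IF replicate 3 (7.35 TPM). Between the PBMC-hCG and control groups it was 1.03 ± 0.32 with all mice and 1.43 ± 0.21 without control replicate 2. The 6 epithelial markers (Epcam, Cdh1, Krt8, Krt18, Krt19, Foxa2) summed to 868 TPM in control replicate 2 and to 494 to 623 TPM in the other control mice. Their sums were 728 to 937 TPM in the IF and 864 to 1147 TPM in the PBMC-hCG mice. For IF against control 4 of the 6 were called higher and Foxa2 was called lower (-0.89). For PBMC-hCG against control 4 were called higher and Foxa2 lower (-0.75). The part of these markers in the Sgpp2 values was not tested.

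**Figure D3:**
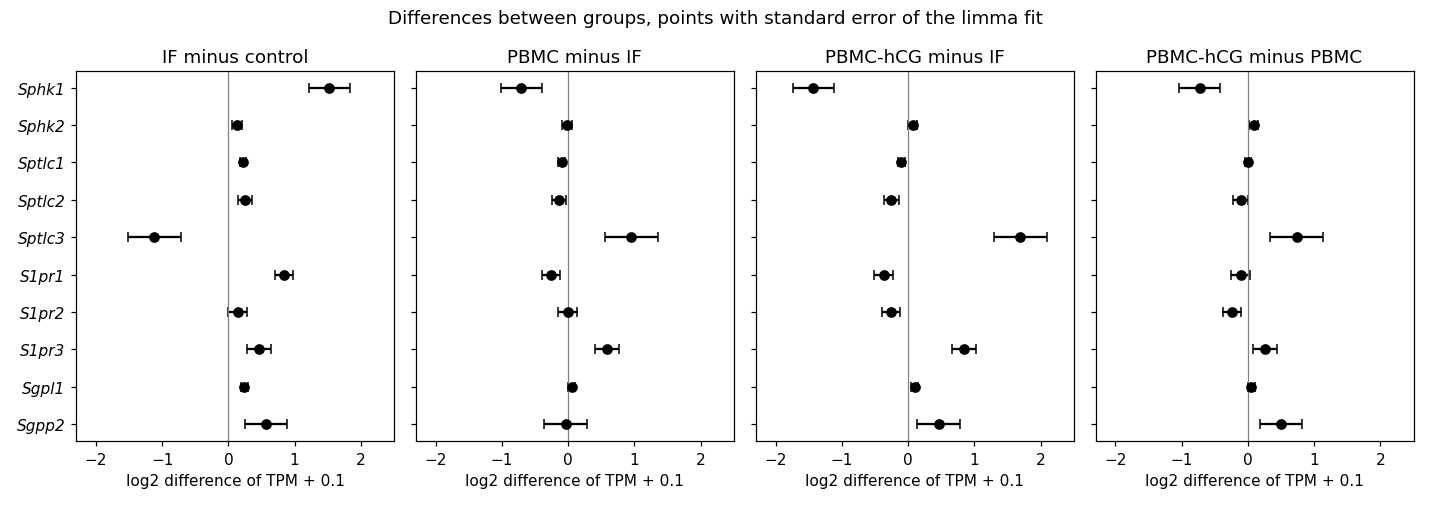
Differences between groups on the log2(TPM + 0.1) scale (horizontal axes) for the 10 genes (rows), with points for the fitted difference and bars for its SE, in 4 comparisons of 5 with 5 mice. Sphk1 lies at 1.52 in the IF group minus control and at -1.43 in the PBMC-hCG group minus IF, and Sptlc3 lies at -1.12 and 1.69 in the same comparisons.

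The values of the 10 genes were next set against the whole table. A limma fit over the 18706 genes above 0 TPM in all 20 libraries, with Benjamini-Hochberg adjustment, called a gene at an adjusted p under 0.05. Because the members were chosen on these levels, their counts are given as a description beside the share of all genes called. Nothing is read from these counts, nor from whether a member's call held when a mouse was left out. For IF against control, 4 of the 10 were called, all higher (Sphk1, Sptlc1, S1pr1, Sgpl1), while 21.9% of all tested genes were called, 13.4% higher and 8.53% lower. The same 4 were the members whose IF and control mice did not overlap, against 12.8% of all genes. Their calls held in each fit with 1 mouse left out, and that of Sgpl1 was lost when the IF and control groups were fitted alone. Single omissions added Sptlc3 (control replicate 5, IF replicate 1 or IF replicate 3), S1pr3 (IF replicate 5) or Sgpp2 (control replicate 2). Among the marker lists for IF against control, 6 of 6 endothelial, 4 of 6 epithelial and 2 of 5 myeloid genes were called higher. Foxa2 of the epithelial list was called lower. Of 6 stromal genes 2 were called lower (Hoxa10 and Hoxa11), with Vim and Col1a1 higher without a call. Of 5 myometrial genes, Acta2 was called lower and Des was higher without a call. The part of these markers in the results for Sphk1 and Sptlc1 was not tested.

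Between the PBMC-hCG and IF groups 3 of the 10 were called, Sphk1 as lower and Sptlc3 and S1pr3 as higher, beside 13.6% of all genes (7.61% higher, 5.99% lower). The mice of these groups did not overlap for 4 members (Sptlc2, Sptlc3, S1pr3, Sgpl1) and for 7.24% of the table. This comparison depended on single libraries. None of the 10 was called without IF replicate 2, 4 or 5 or without PBMC-hCG replicate 2, 3, 4 or 5, and the number of all genes called, 2544 with every mouse, was at most 34 in each of those fits, while it was 5061 without IF replicate 3 and 4166 without PBMC-hCG replicate 1. Among the marker lists, 2 of 5 red cell genes were called lower in this comparison, with a summed level of 640 to 1802 TPM in the IF and 342 to 878 TPM in the PBMC-hCG mice. Of 6 stromal genes 2 (Hoxa10, Pdgfra) were called higher, with sums of 3429 to 3955 TPM and 3476 to 4092 TPM. Hand2 (-0.26) and Col1a1 (-0.21) of that list were lower without a call. Also called higher were 1 of 6 epithelial genes (Krt8, with Epcam and Cdh1 lower without a call), 1 of 6 endothelial genes (Emcn) and 1 of 4 tested ovary and oviduct genes (Gdf9, with Amh, Ovgp1 and Star lower without a call). Their part in the results for Sphk1, Sptlc3 and S1pr3 was not tested. With each library centred on its median, the calls over all genes shifted from 1423 higher and 1121 lower to 1054 higher and 1620 lower.

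Between the PBMC and IF groups no member and 0 of 18706 genes (0.0%) were called by limma. At an unadjusted p under 0.05 there were 3 members (Sphk1, Sptlc3, S1pr3) and 6.79% of all genes, and 0 members and 1.01% of all genes had mice that did not overlap. Between the PBMC-hCG and PBMC groups no member and 2 genes in all (0.0107%) were called. There, 1 member (Sphk1) and 16.2% of all genes had an unadjusted p under 0.05, and 1 member (Sgpp2) and 3.46% of all genes did not overlap. Between the PBMC-hCG and control groups 5 members were called, all higher (Sphk2, S1pr1, S1pr3, Sgpl1, Sgpp2), beside 31.8% of all genes (20.2% higher, 11.6% lower), and 4 members (Sphk2, S1pr1, S1pr3, Sgpl1) and 18.3% of all genes did not overlap. That count was 3 without control replicate 4, without control replicate 5 or without PBMC-hCG replicate 4. It was 7 without control replicate 2, which added Sptlc1 as higher and S1pr2 as lower. The calls of Sphk2 (control replicate 4 or 5, PBMC-hCG replicate 3, 4 or 5), S1pr1 (control replicate 5, PBMC-hCG replicate 1) and Sgpp2 (control replicate 1, 3 or 4, PBMC-hCG replicate 4) were lost without the mice named, and those of Sphk2 and S1pr1 also with each library centred on its median, while those of S1pr3 and Sgpl1 held in all of these fits. For PBMC-hCG against control, 4 of 5 myometrial genes were called lower, and of 6 stromal genes 3 were called lower and Vim higher. All 6 endothelial genes and 2 of 5 myeloid genes were called higher. The part of these markers in the results for S1pr3 and the other members was not tested. The median log2 difference of the members was 0.24 between the IF and control groups (0.02 over all genes). It was -0.02 between the PBMC-hCG and IF groups (0.05 over all genes).

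Within the groups given RU486, S1pr1 varied with Sphk1 from mouse to mouse, while Sptlc3 and S1pr3 varied against it. In the IF group replicate 5 had the highest Sphk1, Sptlc1, Sptlc2 and S1pr1 of its group and the lowest Sphk2, Sptlc3, S1pr3 and Sgpp2. Replicate 5 of the PBMC group was highest and lowest of its group for the same 4 and 4 genes. In the PBMC-hCG group replicate 1 was highest for Sphk1, Sptlc2, S1pr1 and S1pr2 and lowest for Sptlc1 and S1pr3. Replicates 5 of the IF and PBMC groups are different mice, and the replicate numbers were not found to pair mice across groups.

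Over the 15 RU486-treated mice, Pearson's r of log2(TPM + 0.1) between Sphk1 and S1pr3 was -0.95 (Spearman's rho -0.94), and r of the deviations from the 3 group means was -0.91. The values between Sphk1 and Sptlc3 were -0.91, -0.91 and -0.79 in that order, and those between Sphk1 and S1pr1 were 0.87, 0.89 and 0.84. Without the 2 mice farthest from the median of Sphk1, r was -0.91 for S1pr3, -0.84 for Sptlc3 and 0.79 for S1pr1. The control mice did not lie on the S1pr3 relation, having both genes low, and with them included r was -0.25 over 20 mice. Among the control mice the order was the opposite at the extremes. Control replicate 2 had the highest level of both genes (25.5 TPM of Sphk1 and 6.94 TPM of S1pr3). Control replicate 1 had the lowest (13.6 and 5.32 TPM). The share of all genes that vary as closely with Sphk1 was not counted. Levels of 1 library are scaled to a common sum and the libraries are of mixed tissue, so these correlations are a description of these mice.

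**Figure D4:**
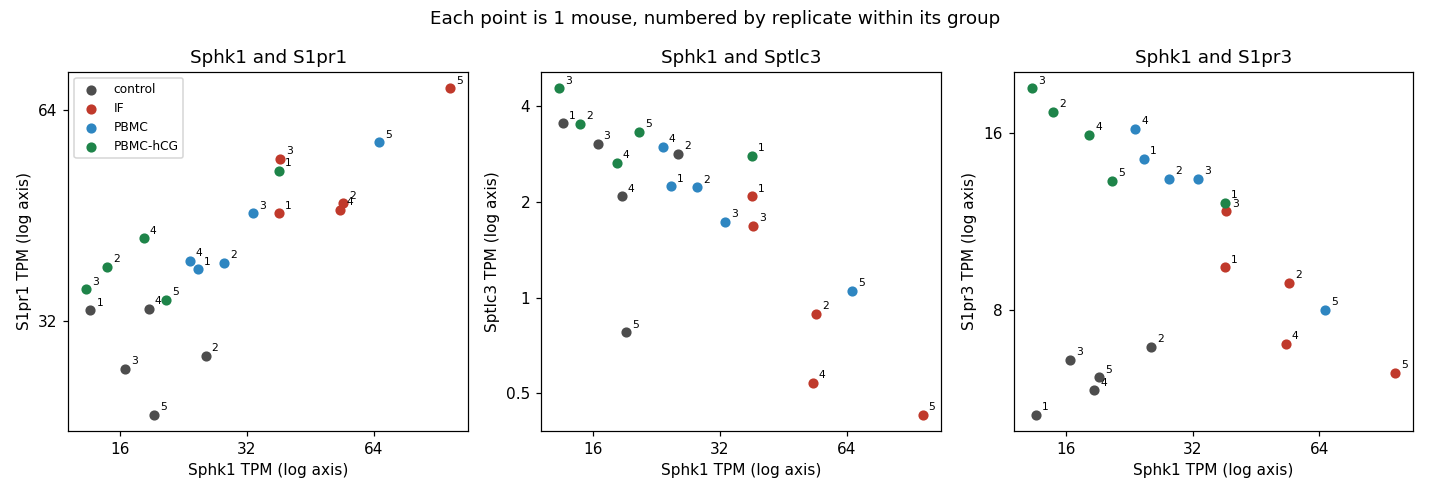
Level of S1pr1, Sptlc3 and S1pr3 (vertical axes, TPM, log axes) against that of Sphk1 (horizontal axes, TPM, log axes), where each point is 1 mouse colored by group and numbered by replicate. S1pr3 was lower in RU486-treated mice with more Sphk1 (r = -0.95, n = 15), while the 5 control mice lie apart at 5.32 to 6.94 TPM of S1pr3, and IF replicate 5 has the highest Sphk1 level, 96.9 TPM.

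The genes whose pattern was most like that of a member were named for the members called between the IF and control groups, as the 5 with the highest Pearson's r over the 20 mice among 15770 genes with a mean of at least 1 TPM. For Sphk1 they were Chst11 (r = 0.963), Cmklr1 (0.960), Krt87 (0.951), Mlph (0.948) and Slco5a1 (0.946). After removal of the group means, r for these 5 was between 0.866 and 0.943. For the other 3 members the range was 0.781 to 0.918 (S1pr1), 0.768 to 0.874 (Sgpl1) and 0.608 to 0.776 (Sptlc1). For S1pr1 they were Spty2d1 (0.941), Gm35824 (0.933), Arl4c (0.929), Furin (0.928) and Lrrc32 (0.928). The genes nearest to Sgpl1 were Kif3a (0.963), Cd93 (0.945), Yes1 (0.944), Cdh5 (0.942) and Nid1 (0.941), of which Cdh5, the cadherin of endothelial junctions, is in the endothelial marker list. Those nearest to Sptlc1 were Bcl6 (0.911), Ddx52 (0.888), Ceacam1 (0.874), Trib3 (0.865) and Hey1 (0.865).

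A list of 62 other sphingolipid genes, which the choice of members did not use, was tested in the same limma fit, and 56 of them passed the filter. For IF against control, 14 of the 56 (25.0%) were called, 10 higher and 4 lower, beside 21.9% of all genes. The median log2 difference was 0.03 over the list and 0.02 over all genes. For PBMC-hCG against IF, 8 (14.3%) were called, 3 higher and 5 lower, beside 13.6% of all genes, with medians of 0.08 and 0.05. The share of the list was thus near that of all genes in both comparisons.

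In ceramide synthesis 1 of 12 tested genes rose and 3 fell for IF against control, beside 13.4% higher and 8.53% lower over all genes. Sptssa, the small activating subunit of serine palmitoyltransferase, fell from 179 to 203 TPM in the control mice to 114 to 142 TPM in the IF mice, with no overlap (log2 difference -0.63 ± 0.06, adjusted p = 1.79e-06, limma). It was still low in the PBMC-hCG group at 131 to 144 TPM (0.15 ± 0.06 against IF, adjusted p = 0.108, and -0.48 ± 0.06 against control, adjusted p = 3.16e-05). Among the ceramide synthases, Cers6 (-0.31 ± 0.09, adjusted p = 0.0148) fell and Cers5 (0.14 ± 0.04, adjusted p = 0.0151) rose between the IF and control groups. Degs1, the desaturase that completes ceramide, fell (-0.20 ± 0.07, adjusted p = 0.0408), a call that was lost without any 1 of control replicates 1, 3, 4 and 5 or IF replicates 1, 2 and 3. Cers2, the synthase of very long chain ceramides, was lower in the PBMC-hCG than in the IF group (-0.29 ± 0.08, adjusted p = 0.0313).

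Downstream of ceramide, 2 of 12 tested genes of ceramide phosphate, transfer and sphingomyelin rose and 1 fell for IF against control, and 3 of 15 glycosphingolipid genes rose. Over all genes 13.4% were called higher and 8.53% lower, and nothing is read from counts this small. Cerk, the ceramide kinase, was at 18.7 to 24.9 TPM in the control mice and at 32.1 to 50.2 TPM in the IF mice (0.84 ± 0.13, adjusted p = 0.000115). Sgms2, a sphingomyelin synthase, was at 61.0 to 124 TPM and 134 to 192 TPM (0.88 ± 0.13, adjusted p = 0.000122). Ugcg, which makes glucosylceramide, was at 25.6 to 34.8 TPM and 42.3 to 75.5 TPM (0.85 ± 0.14, adjusted p = 0.000266). For these 3 genes the IF mice were all above the control mice. B4galt5, which extends glucosylceramide to lactosylceramide, overlapped between the groups (0.81 ± 0.26, adjusted p = 0.0333), and its call was lost without any 1 of control replicates 2 (0.62 ± 0.25), 3 and 4 or IF replicates 2, 4 and 5 (0.59 ± 0.24 without the last). Galc, the lysosomal enzyme that degrades galactosylceramide, also rose (0.57 ± 0.15, adjusted p = 0.00879, and 0.72 ± 0.12 without control replicate 2), and Smpdl3b, a membrane phosphodiesterase, fell with no overlap (-1.26 ± 0.14, adjusted p = 5.16e-06).

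In the PBMC-hCG group, Cerk (-0.45 ± 0.13, adjusted p = 0.0349), Ugcg (-0.49 ± 0.14, adjusted p = 0.0374) and B4galt5 (-0.91 ± 0.26, adjusted p = 0.0363) were lower than in the IF group by the limma fit. The corresponding log2 difference of Sgms2 was -0.35 ± 0.13 (adjusted p = 0.0809). Its levels were 134 to 192 TPM in the IF and 113 to 134 TPM in the PBMC-hCG mice, which met at the printed digits without overlapping. Smpdl3b remained low at 3.99 to 5.99 TPM (-0.14 ± 0.14, adjusted p = 0.519). Asah1, the acid ceramidase that releases sphingosine (0.32 ± 0.09, adjusted p = 0.0307), and Arsa, the lysosomal sulfatase that acts on sulfatide (0.30 ± 0.09, adjusted p = 0.0371), were higher in the PBMC-hCG group. These calls share the dependence on single libraries given above: with 1 mouse left out, the number of list genes called in this comparison lay between 0 (without IF replicate 5, PBMC-hCG replicate 2 or PBMC-hCG replicate 3) and 22 (without IF replicate 3), was 1 without IF replicate 2 or 4 or PBMC-hCG replicate 4 or 5, and was 14 without PBMC-hCG replicate 1.

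Among genes that handle S1P outside the 10 members, Spns2, the exporter of S1P, rose from 29.6 to 36.7 TPM in the control mice to 40.5 to 53.0 TPM in the IF mice (0.51 ± 0.08, adjusted p = 0.000227). It was lower again in the PBMC-hCG mice at 33.5 to 43.0 TPM (-0.28 ± 0.08 against IF, adjusted p = 0.0406). Plpp3, a lipid phosphatase of the cell surface, rose (0.74 ± 0.15, adjusted p = 0.00144), S1pr4 rose (0.45 ± 0.12, adjusted p = 0.0092), and Sphkap, an anchoring protein that binds sphingosine kinase, rose at a level near 1 TPM (0.88 ± 0.30, adjusted p = 0.0432) between the IF and control groups. The Sphkap difference was 0.58 ± 0.25 and no longer called without control replicate 2 (0.152 TPM against 0.468 to 0.692 TPM), and the call was also lost without control replicate 3 or IF replicate 2, 4 or 5. Abcg2, a transporter that can carry S1P, was at 54.5 to 69.0 TPM in the IF mice and at 77.7 to 87.5 TPM in the PBMC-hCG mice (0.44 ± 0.07, adjusted p = 0.0133). Sgpp1, the other S1P phosphatase, was not called between the IF and control groups (-0.18 ± 0.06, adjusted p = 0.0551), and was called without control replicate 2 or IF replicate 4.

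**Figure D5:**
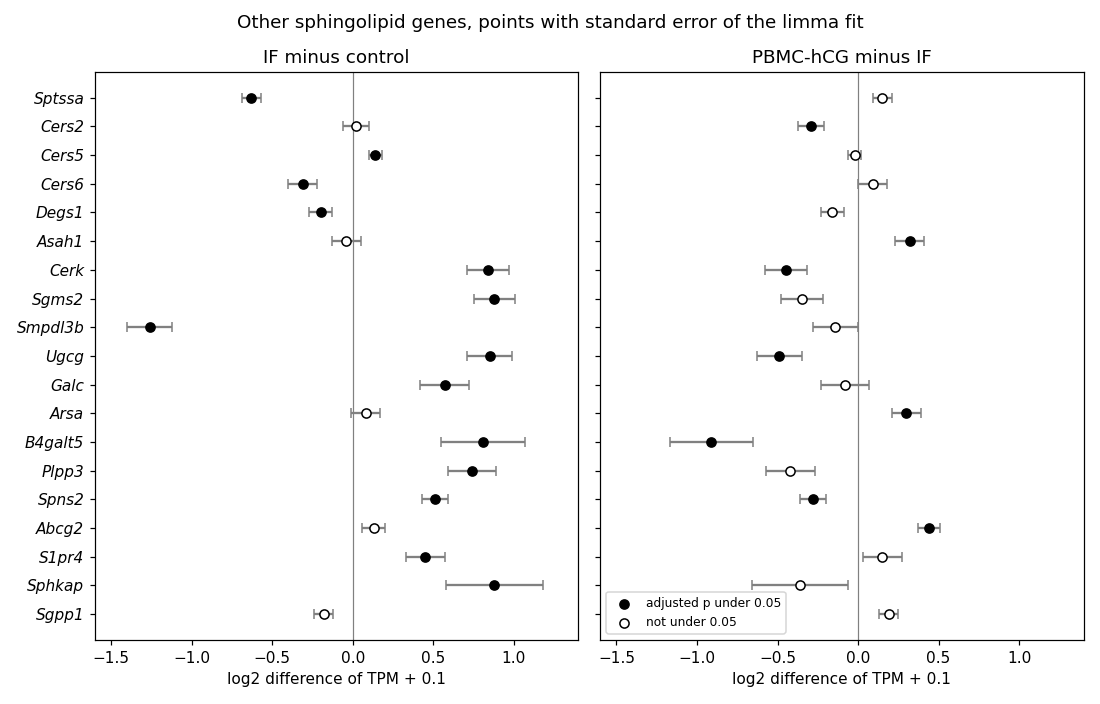
Differences on the log2(TPM + 0.1) scale (horizontal axes) of 19 other sphingolipid genes (rows) in the IF group minus control and in the PBMC-hCG group minus IF, with points for the fitted difference, bars for its SE and filled points for an adjusted p under 0.05. Cerk, Ugcg, B4galt5 and Spns2 are filled in both panels, to the right of 0 on the left and to the left of 0 on the right.

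Over the list, no gene was called between the PBMC and IF groups, where 4 (7.14%) had an unadjusted p under 0.05 beside 6.79% of all genes, nor between the PBMC-hCG and PBMC groups, where 17 (30.4%) had one beside 16.2% of all genes. Between the PBMC-hCG and control groups 19 (33.9%) were called, 14 higher and 5 lower, beside 31.8% of all genes. The comparisons of the IF group with the control and with the PBMC-hCG group share the IF mice, so opposite signs in them are not independent of each other.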

How the data were processed

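Poly(A) RNA from 1 uterine horn of each of 20 mice was sequenced from stranded libraries, 1 per mouse. The authors trimmed reads with Trimmomatic, mapped them to mm10 with HISAT2 and quantified transcripts with StringTie (versions not given in the sources used here), and the deposited values are TPM per gene. Groups and replicate numbers came from the sample titles. TPM are not counts, so the exact test of counts that the study describes could not be used, and depth is unknown. Genes above 0 TPM in all 20 libraries (18706) entered 1 fit of all 4 groups on log2(TPM + 0.1), using limma (3.58.1, R 4.3.3) with its variance trend. Benjamini-Hochberg adjustment ran over every gene in the fit (called under 0.05). The procedure was tested on simulated data. Replicates are separate mice, so p-values measure the spread between mice.

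The members and lists were chosen with earlier results of these data known. The genes named are the 10 members, every gene of the list of 62 called for IF against control or PBMC-hCG against IF (18), Sgpp1 and S1pr5, and the 5 genes most like each member called for IF against control. Of the list, Sptssb, Cers1, Acer1, Ugt8a, Apom and S1pr5 did not pass the filter. Promoter sequences are from RefSeq (GRCm38.p6), and motifs were matched by exact letters. Alternatives tried were other pseudocounts, filters, scalings, fits, the fold change rule of the study, a replicate block and each mouse left out in turn.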

Additional observations from a re-analysis of the deposited data

Results flagged for a closer look

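For 10 of the 120 sets of 5 values examined, each of 1 gene in 1 group, 1 mouse stood far from the others by Dixon's test at the 95% level. Chance alone gives this in about 1 in 20 sets. Genes of the same mouse are not independent, so nothing is read from the number of sets flagged. IF replicate 5 stood above the other IF mice for Sphk1 (96.9 TPM against 38.1 to 54.1), for Sptlc2 (36.1 TPM against 27.6 to 30.0) and for B4galt5 (99.6 TPM against 36.1 to 53.6). PBMC replicate 5 stood above its group for Sphk1 (65.9 TPM against 23.4 to 33.0) and for Plpp3 (308 TPM against 250 to 257). PBMC-hCG replicate 1 stood above its group for Cerk (38.1 TPM against 25.2 to 27.7) and B4galt5 (38.8 TPM against 25.3 to 27.5). Control replicate 2 stood above its group for Sgpp2 (8.09 TPM against 1.63 to 2.38) and Galc (17.6 TPM against 9.69 to 11.6), and IF replicate 3 did so for Smpdl3b (7.71 TPM against 4.36 to 5.17).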

How the results depend on the processing

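Across the alternatives no difference changed sign once called. Smaller moves for IF minus control added Sptlc3 and S1pr3 with quantile normalization or a replicate block, and Sptlc3 with median centring or a mean of at least 1 TPM. For PBMC-hCG minus IF, the compared groups alone added Sptlc2 and quantile normalization added Sgpl1. For PBMC-hCG minus control, the former lost Sgpp2 and the latter Sphk2. The counts of members and of list genes called moved by over 1.5 times in the following cases. Library weights raised the members called from 4 to 7 (IF minus control) and from 3 to 8 (PBMC-hCG minus IF), and the list genes from 14 to 25, from 0 to 1 (PBMC minus IF), from 8 to 33, from 0 to 11 (PBMC-hCG minus PBMC) and from 19 to 33 (PBMC-hCG minus control). The rule of a fold change of at least 2 with an unadjusted p under 0.05 gave 2 members and 1 list gene for IF minus control, 0 list genes for PBMC-hCG minus IF, 1 list gene for PBMC-hCG minus PBMC, and 2 members and 1 list gene for PBMC-hCG minus control. A fit of the compared groups alone gave 7 list genes for IF minus control. For PBMC-hCG minus IF the list genes numbered 1 with genes above 0 TPM in at least 1 library and 13 with quantile normalization. Median centring gave 3 members for PBMC-hCG minus control. With 1 mouse left out, the members called ranged from 0 to 4 (PBMC-hCG minus IF) and from 3 to 7 (PBMC-hCG minus control), and the list genes from 0 to 22 (PBMC-hCG minus IF). Over all genes, the calls for IF minus control, PBMC-hCG minus IF and PBMC-hCG minus control numbered 4104, 2544 and 5941, against 6248, 8078 and 9554 with library weights and 754, 432 and 887 by the fold change rule. They were 2473 for IF minus control with the compared groups alone and 812 for PBMC-hCG minus IF with genes above 0 TPM in at least 1 library. Between PBMC-hCG and PBMC, library weights called 1461 genes in place of 2, and between PBMC and IF they called 34 in place of 0. The causes were not tested. The r of deviations ran from -0.247 to 0.457 over 30 pairs of same-numbered mice (median -0.01), with 8 above 0.1. Over 120 differently numbered pairs the median was 0.009, with 31 above 0.1. No pairing by number was found, although such correlations cannot exclude 1. A replicate block raised the list genes called for PBMC-hCG minus IF from 8 to 14 and moved no other count of members or list genes by over 1.5 times. Depth could not be weighed because TPM keeps no counts.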
